A study of Mus musculus with 16 samples.

Results

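Aminoacyl-tRNA synthetases are the enzymes that load each transfer RNA with its amino acid, and 36 of their genes were followed through a set of RNA-seq libraries from mouse embryonic stem (ES) cells. The genes were taken by name, and all 36 were present in each of the 3 tables of the study, out of 24320 genes named in all 3. Of these, 20 encode the cytosolic enzymes and 16, whose names end in 2, encode the enzymes of the mitochondrion. All 36 passed the filter on low values in every table.

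Cytosolic synthetases serve the ribosomes of the cytoplasm, and mitochondrial synthetases, also made from nuclear genes, serve the separate ribosomes inside the organelle. Most amino acids have a gene for each compartment. Gars and Kars, counted here as cytosolic, encode both the cytosolic and the mitochondrial form of their enzyme, and mitochondria lack a glutaminyl-tRNA synthetase of their own. Several cytosolic synthetases are held in a multisynthetase complex by the scaffold proteins Aimp1, Aimp2 and Eef1e1. When amino acids run short or proteins misfold, kinases phosphorylate the initiation factor eIF2, and the transcription factor ATF4 is then made in larger amounts. ATF4, paired with C/EBP proteins, is known to bind a composite C/EBP-ATF element and to raise genes of amino acid synthesis, amino acid transport and cytosolic aminoacylation.

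The libraries came from the E14Tg2a.IV line, labelled as strain C57BL/6 and grown without feeder cells in serum and LIF (leukemia inhibitory factor), in a study of PML nuclear bodies, TRIM33 and the Lefty genes. There were 16 libraries in 8 groups of 2. The Pml table held untreated wild-type and Pml-knockout cells. The arsenite table held wild-type cells that were untreated or given 200 µM sodium arsenite, a thiol-reactive stressor, for 2 h. In the Trim33 table the labels name wild-type and Trim33-knockout cells. For 2 h each received 50 ng/ml activin A, a TGF-beta family ligand that signals through SMAD proteins, or 10 µM SB431542, which blocks the activin receptor kinases. How the knockouts were made and whether each is 1 clone is not in the labels. Nor do they give the source culture of each library, so the p-values cover only the scatter of these libraries, which may be technical.

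The printed stretches of the promoters show where the C/EBP-ATF element, searched as TGATGNAA on both strands, stands in cytosolic synthetase genes. RefSeq promoters (GRCm38.p6, 250 bases before to 50 bases after the start) were found for 26 of the 36 genes. The element was present in 5 of 12 cytosolic genes (41.7%) and in 0 of 14 mitochondrial genes, against 4.51% of all 27025 genes and 3.97% of all 32851 promoters in the table. The capitals mark the 8 bases that match, and all stretches are written 5′ to 3′ on the strand of the gene. Positions are counted from the transcription start, with +1 as its first base.
Yars, tyrosyl-tRNA synthetase, chr4:129189898-129189921, plus strand, element from +4: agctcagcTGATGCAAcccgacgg
Gars, glycyl-tRNA synthetase, chr6:55037945-55038000, plus strand, element from -30: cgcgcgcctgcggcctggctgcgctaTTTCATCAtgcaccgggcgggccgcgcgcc
Aars, alanyl-tRNA synthetase, chr8:111033704-111033763, plus strand, element from -112: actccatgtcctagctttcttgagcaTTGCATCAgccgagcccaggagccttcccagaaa
Aars, downstream copy, chr8:111033843-111033866, plus strand, element from +10: gggtcactTTTCATCAgagcgctc
Iars, isoleucyl-tRNA synthetase, chr13:49682129-49682152, plus strand, element from +8: tgtcagtaTTGCATCAcctccaga
Tars, threonyl-tRNA synthetase, chr15:11399659-11399699, minus strand, element from -15: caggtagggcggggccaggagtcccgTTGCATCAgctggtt
The match reads in the forward direction in Yars and on the opposite strand in the other 4 genes, and Aars is the member with 2 copies. The E-box CACGTG, a binding sequence of MYC and other basic helix-loop-helix factors, was found in 4 of 12 cytosolic genes (Aars, Farsb, Iars and Tars). It was found in 1 of 14 mitochondrial genes (Ears2), against 8.09% of all 27025 genes and 7.15% of all promoters. A match is a description of the letters in these windows and does not show that a factor was bound.

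Cytosolic synthetase transcripts stood above mitochondrial ones in almost every setting. Levels here are scaled for gene length and library size (FPKM in the Pml table, RPKM in the others), so genes can be compared within a table. In wild-type cells of the Pml table the 20 cytosolic genes ran from 66.8 FPKM for Wars to 298.9 FPKM for Nars, with a median of 121.3. The 16 mitochondrial genes ran from 1.87 FPKM for Wars2 to 50.2 FPKM for Yars2, with a median of 13.6, so the classes did not overlap. In the other tables Lars2, the mitochondrial leucyl-tRNA synthetase gene, was the highest of its class and reached 121.7 RPKM in untreated cells, inside the cytosolic range. Summed over the members, the cytosolic level in untreated cells of the arsenite table was 8.44 and 7.52 times the mitochondrial level in the single libraries.

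Low values of single-exon genes gave depths of 46700000 to 48400000 reads for the arsenite libraries, and 31100000 to 39400000 for those of the Trim33 table. The depth of the Pml table is unknown. Pml itself was reduced and not lost, with a mean of 32.8 ± 1.04 FPKM (SD, n = 2) in the knockout against 47.5 ± 3.39 in wild type. In the Trim33 table Trim33 followed the genotype label with activin A and went against it with SB431542: 2.94 and 2.44 RPKM under the wild-type label, 18.3 and 24.6 under the knockout label. The Y-linked gene Eif2s3y changed with Pml and with Trim33 (18.4 FPKM in Pml wild type and 0.927 in Pml knockout), so another difference between cell lines cannot be told apart from either knockout. Embryonic stem cell markers were present in all groups, with summed levels from 2651 in arsenite to 7762 in Pml wild type.

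The Pml comparison addressed what changes in ES cells that carry a Pml knockout, and cytosolic synthetase transcripts were lower in the knockout almost without exception. At an adjusted p under 0.05 (limma over all genes, Benjamini-Hochberg), 17 of the 20 cytosolic genes fell and 0 rose, where 18.9% of all 11648 genes tested fell and 16.6% rose. Hars, Qars and Farsa did not pass. The median log2 fold change of the 20 was -0.34, against -0.02 over all genes, and the range was -0.94 to -0.06. In all 20 both knockout libraries lay below both wild-type libraries, an arrangement found in 38.0% of all genes. Of the 17 falls 12 kept their call under every alternative tried, and Dars, Farsb, Kars, Rars and Vars lost it under at least 1. Of the 16 mitochondrial genes 5 fell and 1 rose, and the median was -0.10.

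Nars, the asparaginyl-tRNA synthetase gene, had the lowest fold change of the members. The wild-type libraries read 294.1 and 303.6 FPKM, the knockout libraries 159.7 and 150.4, -0.94 ± 0.05 on the log2 scale (SE; adjusted p = 3.44e-06). Its mean fell by 48.1%, and Nars, the highest member in wild type, stood below Kars (228.6 FPKM) and Gars in knockout. Gars read 281.3 and 296.2 FPKM in wild type against 180.9 and 176.3 (-0.69 ± 0.05, adjusted p = 1.73e-05). Aars read 207.2 and 199.9 FPKM against 141.3 and 138.1 (-0.54 ± 0.05, adjusted p = 6.10e-05). Gars and Aars carry the element shown above, and for each the groups lay well apart. Nars had no promoter entry, so whether it carries the element is unknown.

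Sars, which charges serine and selenocysteine tRNAs, stood at 137.7 and 132.8 FPKM in wild type, against 94.3 and 93.4 (-0.52 ± 0.05). Lars, the leucyl enzyme and a leucine sensor of the mTORC1 pathway, stood at 139.6 and 147.7 against 99.8 and 101.7 FPKM (-0.51 ± 0.05). For Cars, the cysteinyl enzyme, the levels were 72.4 and 74.1 against 53.5 and 49.5 FPKM (-0.50 ± 0.06). These 3 genes thus lost between 29.7% and 30.6% of their wild-type mean. Eprs, a fused glutamyl and prolyl enzyme, read 155.4 and 161.7 against 111.2 and 114.9 FPKM (-0.48 ± 0.05). Mars, the methionyl enzyme, read 122.0 and 115.8 against 88.3 and 88.3 FPKM (-0.42 ± 0.05). The other called cytosolic genes were Tars (-0.41), Yars (-0.38), Farsb (-0.31), Vars (-0.26), Iars (-0.26), Wars (-0.26), Rars (-0.22), Dars (-0.21) and Kars (-0.18), each with an SE from 0.05 to 0.06.

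The 3 cytosolic genes that did not pass also had negative values. Hars, the histidyl enzyme, had a fold change of -0.11 with a 95% interval from -0.23 to 0.01. Qars, the glutaminyl enzyme, read 114.9 and 106.9 against 102.8 and 106.6 FPKM (-0.08, interval -0.20 to 0.04). For Farsa, the catalytic subunit of the phenylalanyl enzyme, the interval ran from -0.17 to 0.05, while Farsb, the other subunit of the same enzyme, fell.

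**Figure D1:**
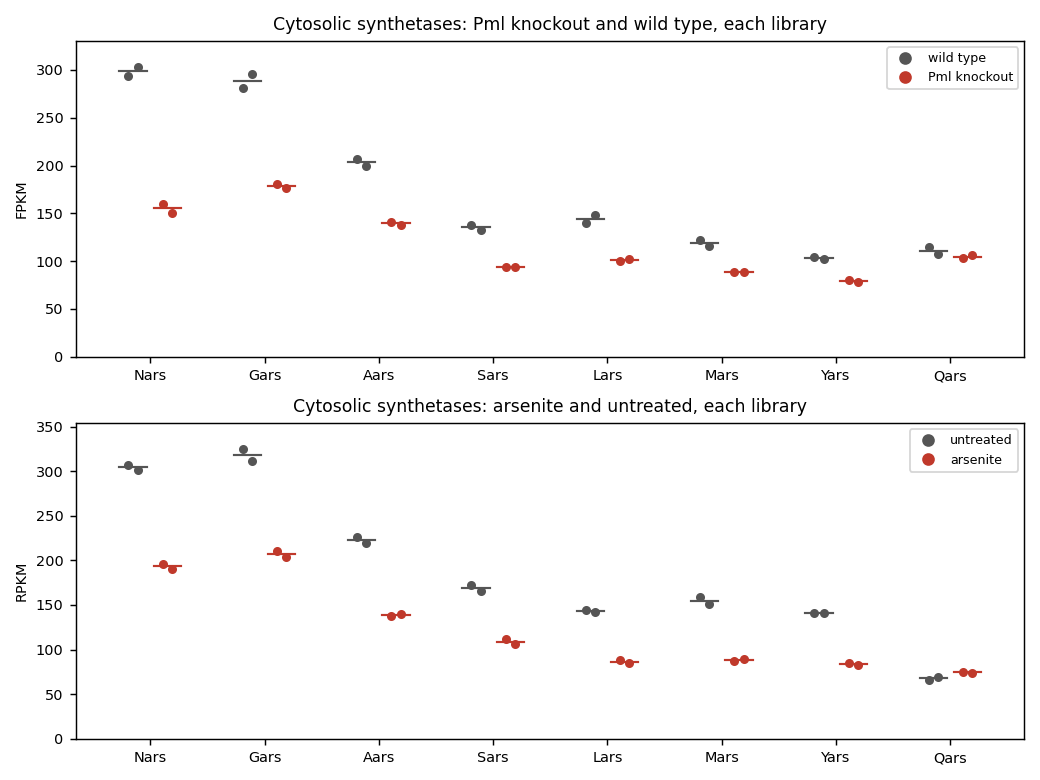
Levels of 8 cytosolic synthetase genes in each library of the Pml table (top, FPKM) and the arsenite table (bottom, RPKM); points are single libraries, short lines are group means, grey is the control and red the knockout or arsenite. For Nars the knockout libraries read 159.7 and 150.4 FPKM against 294.1 and 303.6 in wild type, and Qars is the gene whose arsenite libraries lie above the untreated ones.

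Among mitochondrial synthetases, Sars2 read 23.8 and 19.95 FPKM in wild type, against 16.8 and 16.2 in Pml knockout (-0.38 ± 0.09, adjusted p = 0.0100). Aars2, which charges mitochondrial alanine tRNA, read 22.7 and 21.7 against 16.7 and 17.8 FPKM (-0.34 ± 0.07, adjusted p = 0.00471). Mars2 fell by 0.32, Yars2 by 0.26 and Vars2 by 0.25 on the log2 scale. In 10 of the 16 mitochondrial genes, these 5 among them, both knockout libraries lay below both wild-type ones, as in 38.0% of all genes. The fold change was negative in 14 of the 16. Yars2 was the most abundant of the 5 at 50.2 FPKM in wild type. Lars2 was the member that rose (0.40 ± 0.13, adjusted p = 0.0389), from 27.7 and 27.2 FPKM to 43.2 and 30.9, so its rise differed widely between the knockout libraries. Lars2 was not called without either wild-type library or without knockout library 1 (0.17 without the latter), and Vars2 was not called without any 1 of the 4 libraries. With no filter on low values Aars2 was the 1 mitochondrial gene called lower, and without knockout library 2 there were 2. Levels of Rars2, Wars2, Pars2, Hars2 and Fars2 overlapped between the groups.

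Arsenite for 2 h gave lower cytosolic synthetase transcripts as well. Of the 20 cytosolic genes 18 fell, Qars rose and Farsa did not pass, where 27.0% of all 12136 genes tested fell and 40.7% rose. The median of the 20 was -0.38, against 0.08 over all genes, and the range was -0.80 to 0.14. In 19 of the 20 both arsenite libraries lay below both untreated ones, as in 34.6% of all genes. Of the 16 mitochondrial genes 4 fell, 2 rose and 10 did not pass, with a median of -0.04. In 7 of the 16 both arsenite libraries lay below both untreated ones. In 3 both lay above, against 6053 of all 12136 genes tested. With quantile normalization the share of higher calls over all genes went from 60.1% to 49.1%; the cytosolic median was then -0.31 and the mitochondrial median -0.18.

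Mars had the lowest value in arsenite, with 158.6 and 151.1 RPKM in untreated cells and 87.4 and 90.0 in treated cells (-0.80 ± 0.04, adjusted p = 3.26e-06). Its exons overlap Ddit3 on the opposite strand by 68 bases, 1.99% of its exonic bases. Yars read 140.7 and 141.1 RPKM untreated and 84.6 and 82.7 with arsenite (-0.75 ± 0.04, adjusted p = 2.42e-06). Lars read 143.9 and 141.7 against 88.1 and 84.7 RPKM (-0.72 ± 0.04, adjusted p = 3.95e-06). In these genes the treated libraries stood 39.5% to 42.7% below the untreated mean.

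For Aars the untreated libraries read 226.1 and 219.6 RPKM and the arsenite libraries 137.9 and 140.0 (-0.68 ± 0.04). For Nars they read 306.9 and 301.3 against 196.1 and 190.6 RPKM (-0.65 ± 0.04). Gars, the highest member in untreated cells, read 324.3 and 311.7 against 210.3 and 203.2 RPKM (-0.62 ± 0.04). Within each of these genes the replicates lay far closer together than the groups did. Sars fell by 0.63 and Wars, the tryptophanyl enzyme also known as an interferon-induced gene, by 0.55 on the log2 scale. The remaining called falls were in Cars (-0.40), Iars (-0.40), Farsb (-0.37), Tars (-0.29), Vars (-0.25), Eprs (-0.25), Dars (-0.21), Rars (-0.21), Kars (-0.16) and Hars (-0.12).

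Qars read 66.4 and 69.0 RPKM untreated and 75.2 and 73.8 with arsenite (0.14 ± 0.04, adjusted p = 0.0161). It was the cytosolic member that rose, and it was not called with TMM-scaled values or without 1 of the untreated or 1 of the arsenite libraries. Of the 18 falls 15 kept their call under every alternative tried, and Dars, Hars and Kars lost it under at least 1. Farsa had a value of -0.11 with a 95% interval from -0.23 to 0.02, and was called lower in limma with TMM-scaled values (-0.19, adjusted p = 0.018).

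Yars2 was the mitochondrial gene with the lowest value in arsenite, at 33.5 and 33.1 RPKM untreated and 22.2 and 20.1 treated (-0.63 ± 0.06, adjusted p = 4.95e-05). Lars2 read 106.9 and 136.5 against 92.8 and 78.4 RPKM (-0.50 ± 0.12, adjusted p = 0.00628), the opposite direction to its value in the Pml knockout. Ears2 (-0.35 ± 0.09) and Aars2 (-0.34 ± 0.06) also fell. Iars2 rose from 27.3 and 26.1 to 31.3 and 32.95 RPKM (0.26 ± 0.05, adjusted p = 0.00245), but 36.6% of the 50-base words of its transcript also occur in Rab3gap2 on the opposite strand, and no source used here states whether strand was used in counting. Fars2, the single-chain mitochondrial phenylalanyl enzyme, rose from 7.73 and 7.44 to 9.65 and 8.995 RPKM (0.27 ± 0.07, adjusted p = 0.0101). Ears2 and Fars2 were not called without arsenite library 1 (-0.24, adjusted p = 0.0581, and 0.22, adjusted p = 0.0632, in limma). Fars2 was at 0.11 with quantile normalization (adjusted p = 0.195), and Lars2 was not called with no filter on low values (adjusted p = 0.0519). The other 10 mitochondrial genes had values between -0.18 for Rars2 and 0.11 for Mars2. Some of them gained a call in limma under alternatives. With TMM-scaled values Rars2 (-0.26, adjusted p = 0.0176) and Tars2 (-0.23, adjusted p = 0.0111) were lower. With quantile normalization Tars2 (-0.24, adjusted p = 0.0146), Nars2 (-0.25, adjusted p = 0.0446) and Wars2 (-0.26, adjusted p = 0.0319) were lower.

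**Figure D2:**
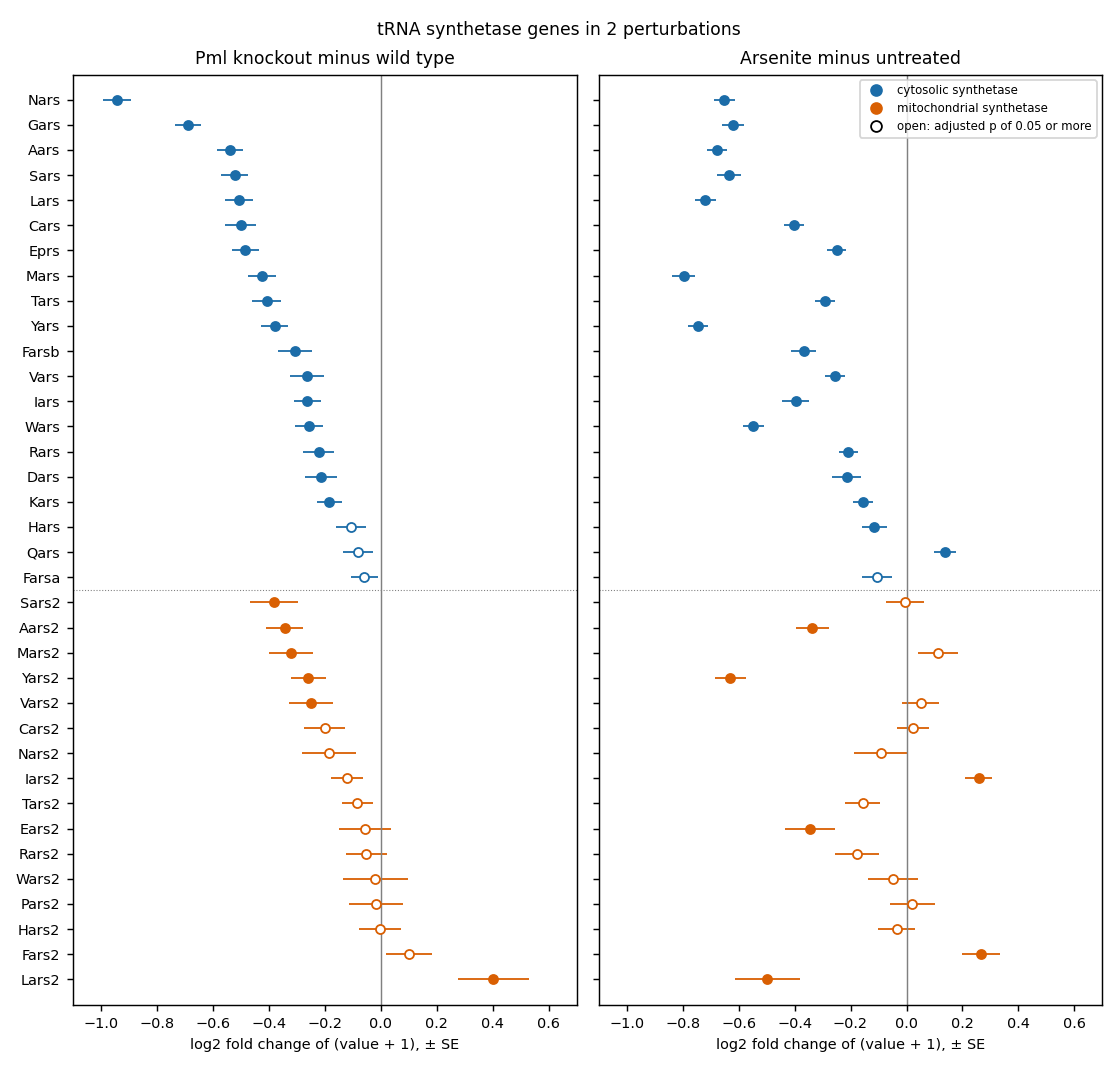
Log2 fold changes of all 36 genes (x axis, log2 of the value plus 1, bars ± SE) in the Pml knockout (left) and with arsenite (right); blue is cytosolic, orange mitochondrial, filled points passed an adjusted p of 0.05. The cytosolic points lie left of 0 except Qars in arsenite, with medians of -0.34 and -0.38, and the mitochondrial points scatter around medians of -0.10 and -0.04.

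The comparison between compartments was made within amino acids. There were 13 amino acids with a cytosolic and a mitochondrial member named alike. In the Pml knockout the cytosolic gene had the lower fold change in 13 of 13 pairs, with a median difference of -0.17 between partners, and with arsenite in 13 of 13 pairs, with a median difference of -0.34. These counts describe the members, rest on log2 of the value plus 1 and carry no test. The pseudocount of 1 shrinks the change of low genes, and with a pseudocount of 0.1 or as percent change of the means the Pml count was 12 of 13, and the arsenite count 13 of 13. The widest pair in the Pml knockout was leucine, with Lars at -0.51 and Lars2 at 0.40, and the next was asparagine, with Nars at -0.94 and Nars2 at -0.19. Valine was the closest and the exception, with Vars at -0.26 and Vars2 at -0.25 on this scale, but means lower by 17.0% and 17.7%. With arsenite the widest pair was methionine, with Mars at -0.80 and Mars2 at 0.11, and the closest was arginine, with Rars at -0.21 and Rars2 at -0.18. In the tyrosine pair both partners fell with arsenite, Yars at -0.75 and Yars2 at -0.63.

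Summed over the 20 cytosolic genes, the level went from 2879 and 2933 FPKM in wild type to 2203 and 2166 in Pml knockout. For the 16 mitochondrial genes the sums were 288.7 and 287.5 against 273.2 and 260.5 FPKM. The cytosolic sum was 9.97 and 10.2 times the mitochondrial sum in wild type and 8.06 and 8.32 times in knockout, with no overlap. With arsenite the cytosolic sum went from 2768 and 2713 to 2007 and 1974 RPKM, and the ratio from 8.44 and 7.52 to 6.63 and 6.99, again with no overlap.

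The Pml and arsenite comparisons share no library, so their values can be set beside each other. All 17 cytosolic genes that fell in the Pml knockout also fell with arsenite, which is 17 of 17 and 17 of 18 of the calls. Over all 11162 genes tested in both, 940 fell in both, out of 2135 and 3155. Of the mitochondrial genes 2, Aars2 and Yars2, fell in both, out of 5 and 4. Across genes, Pearson's r between the fold changes was 0.71 over the 20 cytosolic genes, -0.13 over the 16 mitochondrial genes and 0.34 over all genes. It is given as a description since genes are not independent replicates. The mitochondrial value includes Lars2, which stands apart at 0.40 and -0.50. Its sign may rest on that gene, since r without Lars2 was not computed. The 0.40 of Lars2 became 0.17 without knockout library 1. Nars, Gars, Aars, Sars and Lars stood at or below -0.50 in both comparisons, whereas Eprs had -0.48 in the knockout and -0.25 with arsenite, Mars -0.42 and -0.80, and Yars -0.38 and -0.75. Differences between these pairs of values were not tested.

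**Figure D3:**
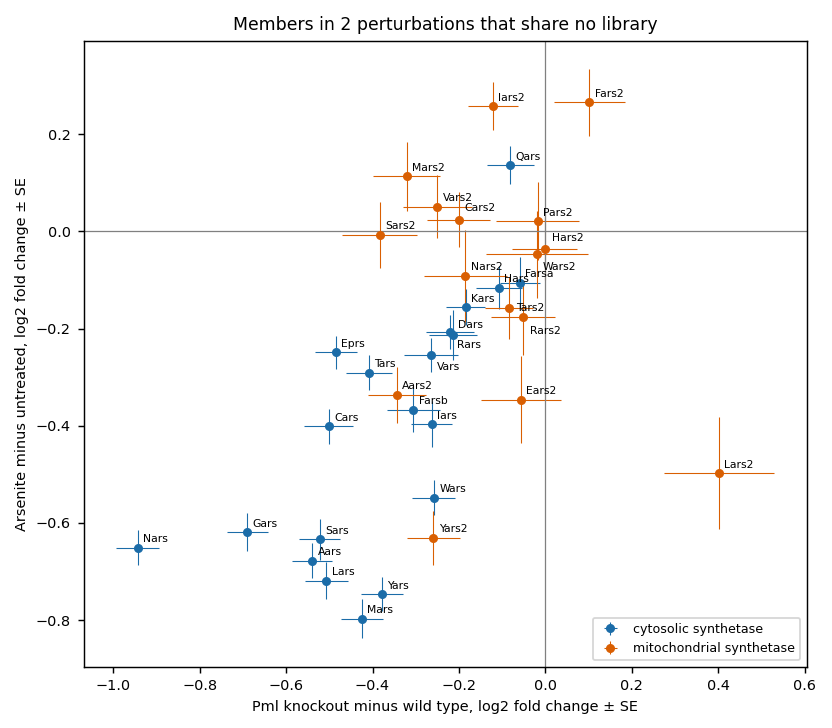
Log2 fold change of each of the 36 genes in the Pml knockout (x axis) and with arsenite (y axis), with SE bars; blue is cytosolic and orange mitochondrial. The cytosolic genes spread along a diagonal from Qars and Farsa near 0 to Nars at -0.94 and -0.65, with r = 0.71. The mitochondrial genes had r = -0.13 with Lars2 included, which stands apart at 0.40 and -0.50.

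Fold changes were then read beside the promoter sequences. In the Pml knockout the 5 cytosolic genes with the element had a median of -0.41, the 7 with a promoter entry but no match -0.21, and the 8 with no entry -0.34. With arsenite the medians were -0.62, -0.21 and -0.47. The 8 with no entry, in which the element could not be searched, were Cars, Hars, Lars, Mars, Nars, Rars, Vars and Wars. The ranges overlapped: Sars, without a match in the window, stood at -0.52 and -0.63, and Iars, with a match, at -0.26 and -0.40. These splits are descriptions of few genes and were not tested.

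Falls were found among synthetases inside and outside the multisynthetase complex, where 18.9% of all genes fell in the Pml knockout and 27.0% with arsenite. Of the 8 synthetases of the complex (Dars, Eprs, Iars, Kars, Lars, Mars, Qars and Rars) 7 fell in the Pml knockout and 7 with arsenite, with medians of -0.24 and -0.23. Of the 12 outside it 10 fell in the knockout and 11 with arsenite, with medians of -0.39 and -0.47. In the knockout 0 of the 3 scaffold genes passed, with Aimp1 at -0.08, Aimp2 at -0.06 and Eef1e1 at -0.04. With arsenite Aimp1 fell by 0.29 and Eef1e1 by 0.51 on the log2 scale, while Aimp2 (0.04) did not pass. By enzyme class, 9 of 10 class I and 8 of 10 class II cytosolic synthetases fell in the knockout, and 9 of 10 of each class fell with arsenite. Eprs, the fused glutamyl and prolyl enzyme, was counted with class I only. Of the mitochondrial synthetases, 3 of 9 class I (33.3%) and 2 of 7 class II genes (28.6%) fell in the knockout. With arsenite 3 of 9 (33.3%) and 1 of 7 (14.3%) fell, against the 27.0% of all genes. These are counts of few genes.

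Genes that supply amino acids were mostly among those that fell, where 18.9% of all genes fell in the Pml knockout and 27.0% with arsenite. Of 15 amino acid synthesis genes 14 fell in the Pml knockout (median -0.70) and 12 with arsenite (median -0.96), and 0 rose in either. Cth, the cystathionine gamma-lyase gene of cysteine synthesis, fell by 1.92 and 1.13 on the log2 scale, and Shmt2, which makes glycine in mitochondria, by 1.04 and 0.99. Of 12 amino acid transporter genes 8 fell in the knockout (median -0.54) and 9 with arsenite (median -0.41). They included Slc7a5, the light chain of the LAT1 transporter (-0.87 and -0.95), and Slc1a5, the ASCT2 glutamine transporter (-1.25 and -0.91). Xpot, the nuclear export receptor of tRNA, fell by 0.46 and 0.49, among 3 of 17 tRNA maturation genes that fell in the knockout and 8 of 17 with arsenite, where 2 rose.

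Of 11 genes of ATF4 and its stress effectors 6 fell in the Pml knockout (median -0.41) and 10 with arsenite (median -0.995). The shares of all genes that fell were 18.9% and 27.0%. Atf4 transcript was at 161.0 FPKM in wild type against 155.7 in the knockout (-0.05 ± 0.05, adjusted p = 0.477), and went from 309.4 to 152.2 RPKM with arsenite (-1.02 ± 0.04, adjusted p = 1.04e-06). Chac1, a glutathione-degrading enzyme gene, fell by 1.95 and 2.01 and Trib3, a pseudokinase gene, by 1.37 and 1.18. The transcript level of Atf4 does not measure its protein, which is set at translation. Of the eIF2 kinases and phosphatase subunits, Eif2ak3, Eif2ak4, Ppp1r15a and Ppp1r15b fell in the knockout (-0.34 to -0.21) and Eif2ak1 and Eif2ak2 did not pass. With arsenite Ppp1r15b fell by 0.64 and Ppp1r15a by 0.43, Eif2ak1 rose by 0.24 and Eif2ak2 by 0.23, and Eif2ak3 and Eif2ak4 did not pass.

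Other parts of the translation machinery gave the counts that follow. They stand beside 18.9% of all genes that fell and 16.6% that rose in the Pml knockout. With arsenite 27.0% of all genes fell and 40.7% rose, and some of the counts lie near these shares. Of 8 cytosolic elongation and release factor genes 0 fell and 1 rose in the Pml knockout (Eef1g, 0.15), and 5 fell and 1 rose with arsenite, with Eif5a at -0.55 and Eef2 at 0.25. Of 77 mitochondrial ribosomal protein genes 24 fell and 2 rose in the knockout (median -0.12), and 37 fell and 12 rose with arsenite (median -0.15). Of 9 mitochondrial translation factor genes 2 fell in the knockout, Mrrf at -0.29 and Tsfm at -0.16. With arsenite 3 of the 9 fell and Gfm1, an elongation factor gene, rose by 0.64. Of 12 tested genes of other aminoacylation and editing enzymes 3 fell in the knockout, with Dtd1 at -0.26 and Tarsl2 at -0.40. With arsenite 5 of these 12 rose and 3 fell, with Tarsl2 at 0.78, Gatb at 0.61, Qrsl1 at 0.45 and Dtd1 at -0.40. Gatb and Qrsl1 are subunits of the amidotransferase that makes mitochondrial glutaminyl-tRNA.

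Marker genes moved with the same contrasts. Over all genes tested, 18.9% fell and 16.6% rose in the Pml knockout, and 27.0% fell and 40.7% rose with arsenite. In the Pml table the summed level of 6 trophectoderm markers was 31.4 to 33.4 FPKM in wild type and 624.3 to 640.2 in knockout, where 5 of 5 tested rose. Fibroblast markers, 6 genes, summed to 7.43 to 7.70 and 19.2 to 21.0 FPKM, and 3 of 4 tested rose and 1 fell. The 8 stem cell markers summed to 7750 to 7762 and 7454 to 7690 FPKM, with 3 of 8 lower, and 2 of 2 tested primitive endoderm markers fell. With arsenite the stem cell markers went from 4740 to 4819 down to 2651 to 2756 RPKM, with 7 of 8 lower and 1 higher, and trophectoderm markers from 31.6 to 31.8 up to 96.5 to 98.2, with 4 of 4 tested higher. Of 3 tested primitive endoderm markers 2 rose, and Thy1, the fibroblast marker tested, fell. The part of these changes in the synthetase values was not tested, and in bulk samples fewer cells of a type and less RNA per cell cannot be told apart.

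The Trim33 table asked what loss of Trim33 does under activin A and under SB431542. With activin A, 0 of 36 synthetase genes passed in limma, where 6.61% of all 11914 genes rose and 2.82% fell. At an unadjusted p under 0.05 there were 3 cytosolic and 3 mitochondrial genes, against 3096 of all 11914 genes. In a limma fit of only the 4 libraries compared Kars (0.39, adjusted p = 0.0482) and Vars2 (0.58, adjusted p = 0.0397) passed, both higher. Kars also passed with quantile normalization (adjusted p = 0.0385). With the replicate number as a block in limma, Aars (0.52, adjusted p = 0.0227), Kars (adjusted p = 0.0473) and Vars2 (adjusted p = 0.033) were higher. Rars2 was then lower (-0.44, adjusted p = 0.0439). The medians were -0.13 for cytosolic and 0.03 for mitochondrial genes, and the cytosolic partner was lower in 9 of 13 pairs. Between the libraries labelled knockout and wild type with SB431542, 0 of 36 passed, where 3.01% of all genes rose and 6.55% fell. An unadjusted p under 0.05 was found for 4 cytosolic and 5 mitochondrial genes, against 3081 of all 11914 genes. Kars passed there with quantile normalization (-0.38, adjusted p = 0.0479). With the replicate block Aars (-0.54, adjusted p = 0.02) and Vars2 (-0.54, adjusted p = 0.0411) were lower there in limma, and Rars2 (0.52, adjusted p = 0.0256) higher. The medians there were 0.08 and -0.10, and the cytosolic partner was lower in 5 of 13 pairs.

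Single genes changed when the genotype difference with activin A was set against that with SB431542 in 1 test. A positive value means that knockout minus wild type was higher with activin A than with SB431542. Since Trim33 goes against the SB431542 labels, the libraries on the positive side, labelled knockout with activin A and wild type with SB431542, are those in which Trim33 read 2.44 to 2.94 RPKM. The genotype labels of the SB431542 libraries may be exchanged, which the files do not settle. If they are turned, the same test sets the libraries low in Trim33 minus those high in it with activin A against the same with SB431542: 0 of 11914 genes then passed in limma, 76 had an unadjusted p under 0.05, and 0 of the 36 synthetase genes were among these. The 76 are below a share of 0.05 of the genes, so this fit may overstate the scatter. Its 0 calls do not show that no gene differs. The values that follow are as labelled. In this test 2 of 20 cytosolic genes were higher and 2 lower, and 2 of 16 mitochondrial genes were higher and 1 lower, where 16.1% of all genes were higher and 10.1% lower. The share of called members was thus near that of all genes.

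Kars, the lysyl enzyme, read 201.6 and 201.1 RPKM with activin A under the wild-type label, and 264.8 and 263.2 under the knockout label. Under the SB431542 labels it read 273.1 and 258.9 RPKM for wild type, and 216.9 and 197.1 for knockout. As labelled, the genotype difference was 0.39 with activin A and -0.36 with SB431542, a gap of 0.75 ± 0.16 on the log2 scale (adjusted p = 0.00936). With the SB431542 labels turned it was 0.39 and 0.36, so Kars was higher in the libraries with little Trim33 under both treatments. Vars2, the mitochondrial valyl enzyme, had the smallest adjusted p (1.12 ± 0.22, adjusted p = 0.00741), with 7.27 to 7.67 RPKM in the 4 libraries on the positive side and 4.20 to 5.16 in the other 4. Aars (1.06 ± 0.27) and Cars2 (0.74 ± 0.20) were higher, and Rars2 (-0.96 ± 0.21), Lars (-0.64 ± 0.16) and Qars (-0.58 ± 0.16) lower. Aars shares 22.4% of its 50-base words with Exosc6 and Cars2 17.8% with Naxd, so reads of these genes can be shared. Kars, Rars2 and Vars2 kept their call when any 1 of the 8 libraries was left out, and Aars, Cars2, Lars and Qars lost it in at least 1 such case. In the same libraries fibroblast markers summed to 10.9 to 41.8 RPKM on the positive side and 6.79 to 7.49 on the other, and their part in these values was not tested.

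**Figure D4:**
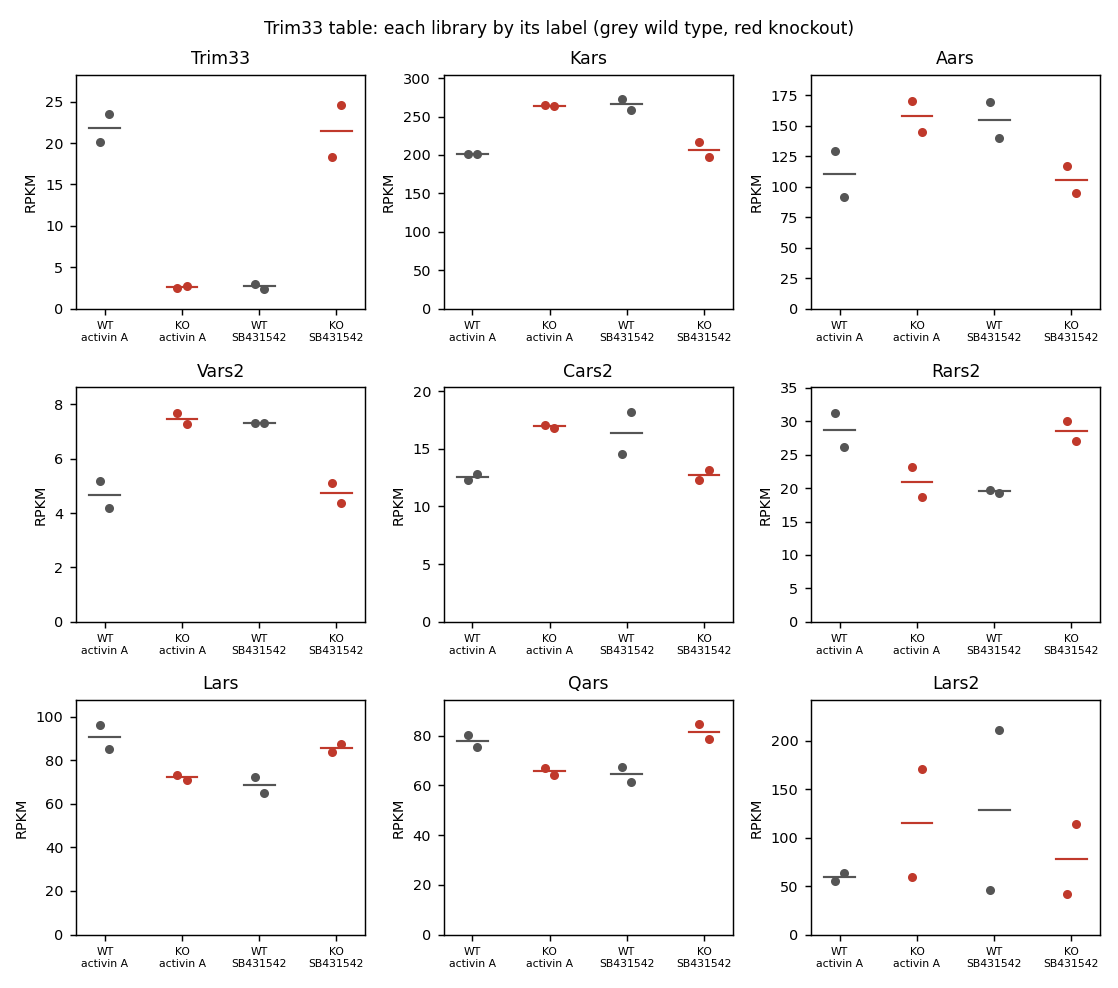
RPKM of Trim33, the 7 synthetase genes that passed and Lars2 in the 8 libraries of the Trim33 table, by label (x axis: WT is wild type, KO is knockout); points are libraries and lines group means. Kars sits at 258.9 to 273.1 in the knockout activin A and wild type SB431542 libraries and at 197.1 to 216.9 in the other 4. Lars2 spreads from 42.3 to 211.2 over the 8 libraries, with library 2 the higher in each group.

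Lars2 varied widely within groups of the Trim33 table, and in each group library 2 read higher than library 1. The summed cytosolic level was lower in library 2 of each group. What sets the libraries of the 2 replicate numbers apart was not tested. With activin A it read 55.3 and 63.3 RPKM under the wild-type label, and 59.6 and 171.2 under the knockout label. With SB431542 it read 45.6 and 211.2 in those labelled wild type and 42.3 and 113.9 in those labelled knockout. The 4 groups overlapped one another, and the summed mitochondrial level, which includes Lars2, was 227.7 to 396.0 RPKM in these libraries.

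Activin A was compared with SB431542 over both genotype labels, which does not depend on which genotype label a library carries. In limma 0 of 36 synthetase genes passed, where 0.109% of all genes were higher and 0% lower. Unadjusted p-values under 0.05 numbered 0 among the members, against 361 of all 11914 genes, and the smallest of a member was 0.136, for Mars2. The medians were 0.01 for cytosolic and 0.00 for mitochondrial genes, and member values lay between -0.11 for Nars2 and 0.22 for Mars2. The cytosolic partner was lower in 6 of 13 pairs.

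The related lists were counted in the same test of the difference between genotype effects as labelled, where 16.1% of all genes were higher and 10.1% lower. There 3 of 11 tested transporter genes were lower and Slc7a5 higher (1.26), and 2 of 15 synthesis genes were lower, Cth among them (-1.88), and 1 higher, Got2 (0.54). Of 11 ATF4 and stress effector genes Nupr1 was the 1 that passed (2.62). Of 12 other aminoacylation genes 3 were lower, with Dtd1 at -1.01 and Gatc at -1.30, and Aarsd1 (1.03) was higher, and of 17 tRNA maturation genes 6 were lower, Trnt1 (-1.16) among them, and 1 higher.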

How the data were processed

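RNA of mouse E14Tg2a.IV ES cells was made into Illumina TruSeq libraries from total RNA, per the labels' protocols. Per the submitters' processing notes the build was mm10 and the tools included featureCounts 2.0.1, SAMtools 1.9, Bowtie2 2.3.3, FastQC 0.11.5 and DESeq2, in no stated role or order. The authors deposited FPKM values for the Pml table and RPKM values for the arsenite table; the Trim33 table names no unit, and its deposited values behave as RPKM, since value times length of single-exon genes falls on whole reads for 92.7% to 97.2% of low values (within 0.05 reads). No column of other samples held values (0 columns). The untreated columns carry a name that shows their group but not which sample they are.

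Values were tested as log2(value + 1), which understates changes of low genes, keeping genes that reached 1 in 2 or more libraries of their table. Names that a spreadsheet had turned into dates (27 per table) were left out. Each table was fitted alone in limma 3.58.1 (R 4.3.3; intensity trend, two-sided, Benjamini-Hochberg over all genes tested, call at adjusted p under 0.05), with 4, 4 and 8 libraries and 2, 2 and 4 residual degrees of freedom. The Trim33 table was fitted as 4 group means. No count test was run, since the files hold normalised values. The fit was tested on simulated data.

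All 36 genes could be named. From related lists of more than 5 genes up to 4 called members were named. The values of 1 gene of these lists are not reported here. The members and lists were chosen with earlier results of these data known, so they are not independent evidence, and lists were described by counts and medians with no set test. Alternatives were a pseudocount of 0.1, no filter, TMM scaling, quantile normalization, a replicate block, only the 4 libraries compared (Trim33), leaving out each library and, added after seeing the data, turning the genotype labels of the SB431542 libraries. Gene positions and overlaps come from GENCODE annotation of GRCm38, and shared sequence was counted as 50-base words of the longest coding transcript. Promoters come from RefSeq (GRCm38.p6). Python 3.11.15 with pandas 2.3.3, numpy 2.4.6 and matplotlib 3.10.9 was used for depth, sequence and figures.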

Additional observations from a re-analysis of the deposited data

Results flagged for a closer look

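As labelled, the genotype effect differed between activin A and SB431542 for 7 of 36 synthetase genes in limma's test of the difference itself. Of all 11914 genes 16.1% were higher and 10.1% lower in this test, so the members were not called more often than genes at large. Trim33 contradicts the genotype labels of the SB431542 libraries, which may be exchanged, so these values are not shown to be an effect of the treatment. With those labels turned, an alternative added after seeing the data, the difference for the 7 genes ran from -0.02 for Aars to 0.09 for Qars, and 0 of them passed in limma. The difference (knockout minus wild type with activin A, minus the same with SB431542) was positive for Vars2 at 1.12 (adjusted p = 0.00741), for Kars at 0.75 (adjusted p = 0.00936), for Aars at 1.06 (adjusted p = 0.0204) and for Cars2 at 0.74 (adjusted p = 0.0266). It was negative for Rars2 at -0.96 (adjusted p = 0.0109), for Lars at -0.64 (adjusted p = 0.0209) and for Qars at -0.58 (adjusted p = 0.0272). The 7 genes include no amino acid with both its cytosolic and its mitochondrial gene.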

How the results depend on the processing

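No direction of a called gene reversed under the alternatives run, apart from turned labels in the Trim33 table. The values given next replaced those of the report, and the cause was not tested. In the Pml comparison no filter on low values gave 1 mitochondrial gene lower and 0 higher, quantile normalization 0 higher and a cytosolic median of -0.316, and TMM-scaled values a cytosolic median of -0.317. With arsenite TMM-scaled values gave 19 cytosolic genes lower and 0 higher, 6 mitochondrial genes lower, and medians of -0.462 (cytosolic) and -0.107 (mitochondrial). Quantile normalization gave -0.308 and -0.177, with 7 mitochondrial genes lower and 1 higher; the median of all genes was 0.08, and 0.01 with TMM and -0.01 with quantile values.

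In the Trim33 table quantile normalization gave 1 cytosolic gene higher with activin A, 1 lower with SB431542 and a mitochondrial median of -7.44e-04 for the difference of effects, and the share of higher calls over all genes went from 70.1% to 57.9% (activin A), 31.5% to 41.7% (SB431542) and 61.5% to 49.5% (difference). Fits of only the 4 libraries compared called 1852 genes with activin A (1123 in the report's fit), 1 cytosolic and 1 mitochondrial member higher among them, and 608 with SB431542 (1139). No filter on low values left 8 genes called between activin A and SB431542 (13).

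With the genotype labels of the SB431542 libraries turned, chosen after seeing the data, the difference of effects gave 0 calls over all genes, so 0 cytosolic and 0 mitochondrial genes in either direction, and medians of -0.0128 and 0.0419. Aars was then at -0.0208, Qars at 0.0932 and Rars2 at 0.0842, against the opposite sign as labelled; by construction this setting adds the 2 labelled effects in place of subtracting them.

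The labels tie replicate numbers to no shared batch, and the correlation of deviations was not above 0.1 in every pair of groups, so the numbers were not taken as pairs. It was 0.02 in the Pml table, and for Trim33 it was 0.19 to 0.60 in 4 of 6 pairs of groups and -0.14 in the other 2. The highest, 0.60 and 0.37, were in the pairs of groups alike in Trim33 level. The fit without a block leaves such a shared difference in its scatter. With a replicate block the activin A comparison gave 2 cytosolic genes higher (Aars and Kars), 1 mitochondrial gene higher (Vars2) and 1 lower (Rars2). The SB431542 comparison gave 1 cytosolic gene lower, and 1 mitochondrial gene higher and 1 lower. The difference of effects gave 4 mitochondrial genes higher, and cytosolic Farsb gained a call as lower (-0.54). Activin A against SB431542 gave 23 genes in all. For the arsenite table no block was fitted because the untreated columns carry no replicate number of the labels.

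Leaving out 1 library at a time (the lone library of a group is then assumed to vary like the others) gave these ranges. In the Pml comparison the cytosolic median was -0.374 to -0.317 and the mitochondrial -0.139 to -0.0937, with 2 to 5 mitochondrial genes lower and 0 to 1 higher. With arsenite 0 to 1 cytosolic and 1 to 2 mitochondrial genes were higher. Calls over all genes numbered 185 to 355 with activin A, 294 to 1036 with SB431542, 1853 to 3395 for the difference and 7 to 16 between the treatments. With activin A the cytosolic median was -0.215 to -0.0118 and the mitochondrial -0.0504 to 0.149, and with SB431542 the mitochondrial was -0.144 to -0.0178. For the difference 0 to 3 cytosolic genes were lower and 1 to 2 higher, 1 to 3 mitochondrial genes were higher, and the mitochondrial median was -0.0394 to 0.286, so its sign rests on single libraries. With 2 libraries per group the spread is largely shared between genes, and for low genes such as Wars2, at 1.07 to 2.50, the precision is limited.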
